A study of Mus musculus with 48 samples.

Results

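The 65 RNAs described here are 5' fragments of the glutamate tRNA with the anticodon TTC (GluTTC). They were selected on the deposited annotation and on abundance: a fragment had to be typed as a 5'-half or a 5'-tRF, every annotated location had to be a GluTTC tRNA, and the counts summed over all 48 libraries had to reach 10. This left 65 of 125 candidates, among 13007 tRNA fragments in the table. The summed count is the measured value that chose them: 2 members lay just above the minimum with 10 to 12 counts, 6 candidates lay just below it with 7 to 9, and the candidates below the minimum held 162 counts in all, against 259140 in the members. The members were 20 to 44 bases long, and they took 2.06% of the 12563678 tRNA fragment counts of the series.

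A tRNA carries an amino acid to the ribosome, and its anticodon loop reads the codon in the messenger RNA. Under stress, endonucleases such as angiogenin cut the anticodon loop and release 5' and 3' pieces, while cuts in other loops release shorter fragments. 5' fragments of the glutamate and glycine tRNAs are among those most often seen in small RNA sequencing of nervous tissue. The superior cervical ganglion (SCG) holds sympathetic neurons, and the trigeminal ganglion (TG) holds the sensory neurons of the face, each surrounded by satellite glia and Schwann cells.

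Small RNA was sequenced from the SCG and the TG of Balb/c mice of both sexes, 2.5 months old. Each mouse had 0.2 mL injected into the peritoneum, either saline or lipopolysaccharide (LPS) of E. coli O55:B5 at a dose of 2.5 mg/kg. They were killed 4 h, 24 h or 7 d later, which with 2 ganglia kinds and 2 treatments gives 12 groups of 4 libraries, 2 from females and 2 from males. A library came from both ganglia of a kind of 1 mouse, with 140 ng of RNA as input. Of 96 RNA samples 48 were sequenced, with RNA integrity numbers from 6.4 to 9.3 that are not tied to libraries here, and no label links an SCG library to a TG library of the same animal. Whole ganglia mix neurons with glia, vessels and blood, so no value belongs to 1 cell type.

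The members fell into 8 families by their first 10 bases. Family 1 held 24 members and 52.7% of the members' counts, family 2 held 20 and 32.8%, family 3 held 7 and 7.96%, and family 4 held 7 and 6.32%. One fragment of each of these 4 families, chosen to reach as far as a tested fragment that a result turns on, is printed 5' to 3' to show how the families differ, with capitals at the bases that differ from family 1 at the same position, counted from base 1 at the 5' end of the tRNA.
tRF-36-86J8WPMN1E8Y7ZD (family 1): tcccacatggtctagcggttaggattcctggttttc
tRF-36-86V8WPMN1E8Y7ZD (family 2): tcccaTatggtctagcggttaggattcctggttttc
tRF-32-PER8YP9LON4V3 (family 3): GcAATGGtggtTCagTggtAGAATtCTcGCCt
tRF-36-87R8WP9I1EWJQZD (family 4): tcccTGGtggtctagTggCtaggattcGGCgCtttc
Families 1 and 2 differed by the single substitution C6T. Family 3 differed from family 1 at 19 of 32 bases, and none of its members reached base 33, so its anticodon is not seen in them.

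In the 18 members that reach base 36, all of families 1, 2 and 4, the anticodon TTC occupies bases 34 to 36. Of the 65 members, 41 end before base 34. The next 5 fragments of family 1 show where the main ends lie, with the anticodon bases in capitals.
tRF-29-86J8WPMN1EJ3: tcccacatggtctagcggttaggattcct
tRF-31-86J8WPMN1E8Y0: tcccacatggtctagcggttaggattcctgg
tRF-33-86J8WPMN1E8Y0E: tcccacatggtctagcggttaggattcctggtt
tRF-34-86J8WPMN1E8Y2Q: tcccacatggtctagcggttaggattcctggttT
tRF-36-86J8WPMN1E8Y7ZD: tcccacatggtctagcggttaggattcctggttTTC
In families 1, 2 and 4 the annotation's type 5'-half covers ends from base 32 to base 35. The fragments that end with the anticodon, at base 36, are typed 5'-tRF, as are those that end at base 31. In family 3 the end at base 31 is typed 5'-half, so its base numbers may not mark the same place in the tRNA as in the other families. The 16 members typed 5'-half held 42.5% of the members' counts. The annotation gives human tRNA loci, and the position of the mouse genes is not reported here.

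The main fragment of family 3 lay 1 base from a fragment of other tRNAs, and the pair is printed with that base in capitals.
tRF-31-PER8YP9LON4VD (GluTTC, family 3): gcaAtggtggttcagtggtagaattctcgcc
tRF-31-PIR8YP9LON4VD (GlyCCC and ValCAC): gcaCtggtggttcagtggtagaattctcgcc
From the neighbour to the member the change is C4A. The family 3 fragment had 14666 counts and its neighbour 16830, and the first was 56.1% to 133% of the second in the SCG libraries and 42.6% to 139% in the TG libraries. Whether misread neighbour reads are counted in a family was not tested.

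Libraries held 61218 to 1511191 tRNA fragment counts, and the precision of the rarer members is limited by this depth. The fragments made up 2.73% to 24.1% of tRNA fragment plus miRNA counts in the SCG and 1.73% to 9.93% in the TG. All 3 miRNAs of the sensory neuron list (miR-183-5p, miR-96-5p and miR-182-5p) were detected in every library, with a summed level of 57037 to 88281 CPM (miRNA counts scaled to a common library size) in the TG after saline, 66277 to 82651 in the TG after LPS, 783 to 21076 in the SCG after saline and 221 to 3796 in the SCG after LPS; the highest SCG value belongs to SCG 24h saline replicate 1, and the ranges of the ganglia did not overlap. The LPS list (miR-155-5p, miR-146a-5p and miR-21a-5p) lay at 12885 to 40935 CPM in the SCG after LPS against 5866 to 11792 after saline, and at 7283 to 22008 CPM in the TG after LPS against 5087 to 7981 after saline, where the ranges overlapped. In the miRNA table SCG 7d LPS replicate 2 and SCG 4h saline replicate 1 stood apart by miRNAs of other cell types: the leukocyte list reached 9822 CPM in the first against a median of 612 in the SCG after LPS, and the muscle list 94360 CPM in the other against a median of 510 in the SCG after saline. The calls between ganglia are also given without each of them.

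Summed over all members, the GluTTC 5' fragments took a similar share of the tRNA fragments in both ganglia. The share was 0.765% at the lowest, 1.66% at the median and 3.73% at the highest in the 12 SCG libraries after saline, and 1.23%, 1.90% and 5.02% after LPS. In the TG it was 1.22%, 1.46% and 2.49% after saline and 0.820%, 1.63% and 3.98% after LPS. The ranges of all 4 sets overlapped. The mean TG share was 0.838 times the mean SCG share; as a share of tRNA fragment plus miRNA counts the same ratio was 0.386, and tRNA fragments made up a median of 7.47% of those counts in the SCG and 3.84% in the TG. In bulk ganglia, fewer cells of a type and less RNA per cell cannot be told apart.

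The part of the members' counts typed 5'-half varied widely within each set. It was 29.5% at the lowest, 55.3% at the median and 74.8% at the highest in the SCG after saline, and 21.8%, 49.6% and 67.0% after LPS. In the TG it was 38.1%, 60.4% and 72.0% after saline and 14.9%, 54.2% and 62.0% after LPS, and all 4 ranges overlapped. The type joins ends that differed between the ganglia in opposite directions or not at all, so the results below are given by the last base.

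**Figure D1:**
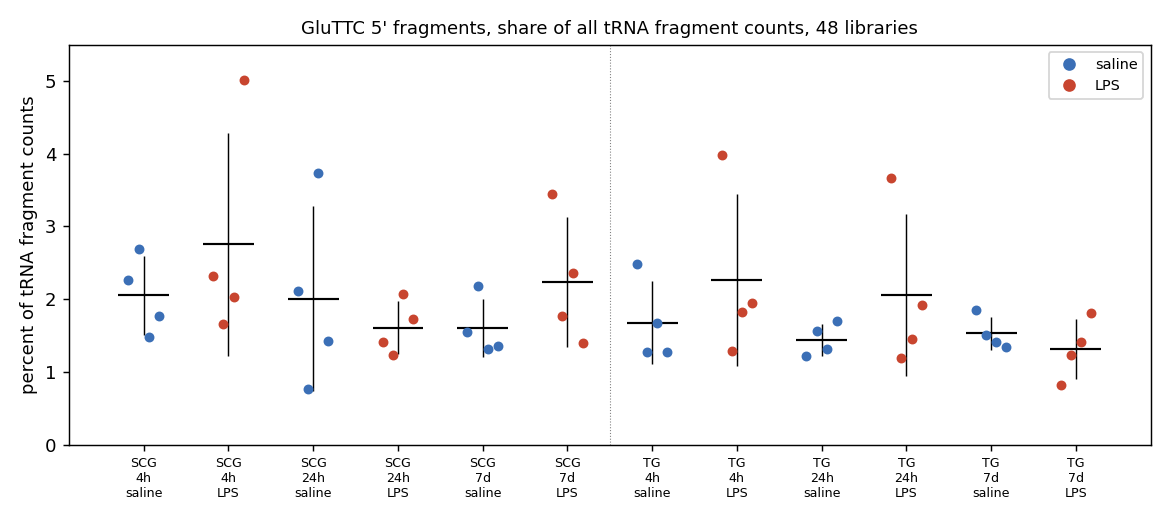
Share of all tRNA fragment counts taken by the 65 GluTTC 5' fragments, in percent, in each of the 48 libraries; each point is a library, horizontal lines are group means and vertical lines 1 SD (n = 4). The highest library, SCG 4h LPS replicate 4, lies at 5.02% and the lowest, SCG 24h saline replicate 2, at 0.765%, and the groups overlap.

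The ganglia differed in where the fragments ended. In families 1 and 2, which hold most of the counts, the TG had higher scaled levels of the fragments that run through the anticodon to base 36. It had lower scaled levels of those that end at bases 28, 30, 31, 32 and 34. tRF-36-86J8WPMN1E8Y7ZD ranged from 52.2 CPM (median 181, highest 656) in the SCG after saline and from 450 CPM (median 807, highest 1839) in the TG. After LPS it ranged from 103 CPM (median 182, highest 633) in the SCG and from 377 CPM (median 1221, highest 2029) in the TG. After saline 1 of 12 SCG libraries reached the lowest TG value, and after LPS 3 did. CPM of fragments are given after scaling by trimmed mean of M values (TMM). With edgeR's quasi-likelihood test, fitted over 24 libraries with terms for time and sex and adjusted over all fragments tested, its log2 fold change, TG minus SCG, was 2.12 (SE 0.36, adjusted p = 2.81e-05) after saline and 2.33 (SE 0.27, adjusted p = 1.05e-07) after LPS.

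The fragment 5 bases shorter went the other way. tRF-31-86J8WPMN1E8Y0, which ends before the anticodon, ranged from 384 to 6625 CPM (median 992) in the SCG and from 177 to 357 CPM (median 264) in the TG after saline, with no overlap. After LPS it ranged from 378 to 11002 CPM (median 1893) in the SCG and from 281 to 1219 CPM (median 346) in the TG, and 8 of 12 TG libraries lay below every SCG library. Its log2 fold change was -2.65 (SE 0.42, adjusted p = 1.33e-05 by edgeR) after saline and -2.63 (SE 0.48, adjusted p = 7.09e-05) after LPS.

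The fragment between them in length did not pass the test. tRF-33-86J8WPMN1E8Y0E, which ends at the base before the anticodon, lay at 1337 to 4515 CPM (median 1821) in the SCG and 1864 to 2993 CPM (median 2298) in the TG after saline, and at 1395 to 7373 CPM (median 2292) against 2032 to 2969 CPM (median 2286) after LPS. The TG range lay inside the SCG range both times. Its log2 fold changes were 0.11 (SE 0.20, adjusted p = 0.71 by edgeR) and -0.08 (SE 0.20, adjusted p = 0.781), and neither was called. Scaled to total tRNA fragment counts, the value after saline was 0.93 (adjusted p = 0.0018), and with library sizes of the miRNA table it was -0.15. After LPS it was 0.56 with total counts and 0.06 without SCG 4h LPS replicate 1.

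**Figure D2:**
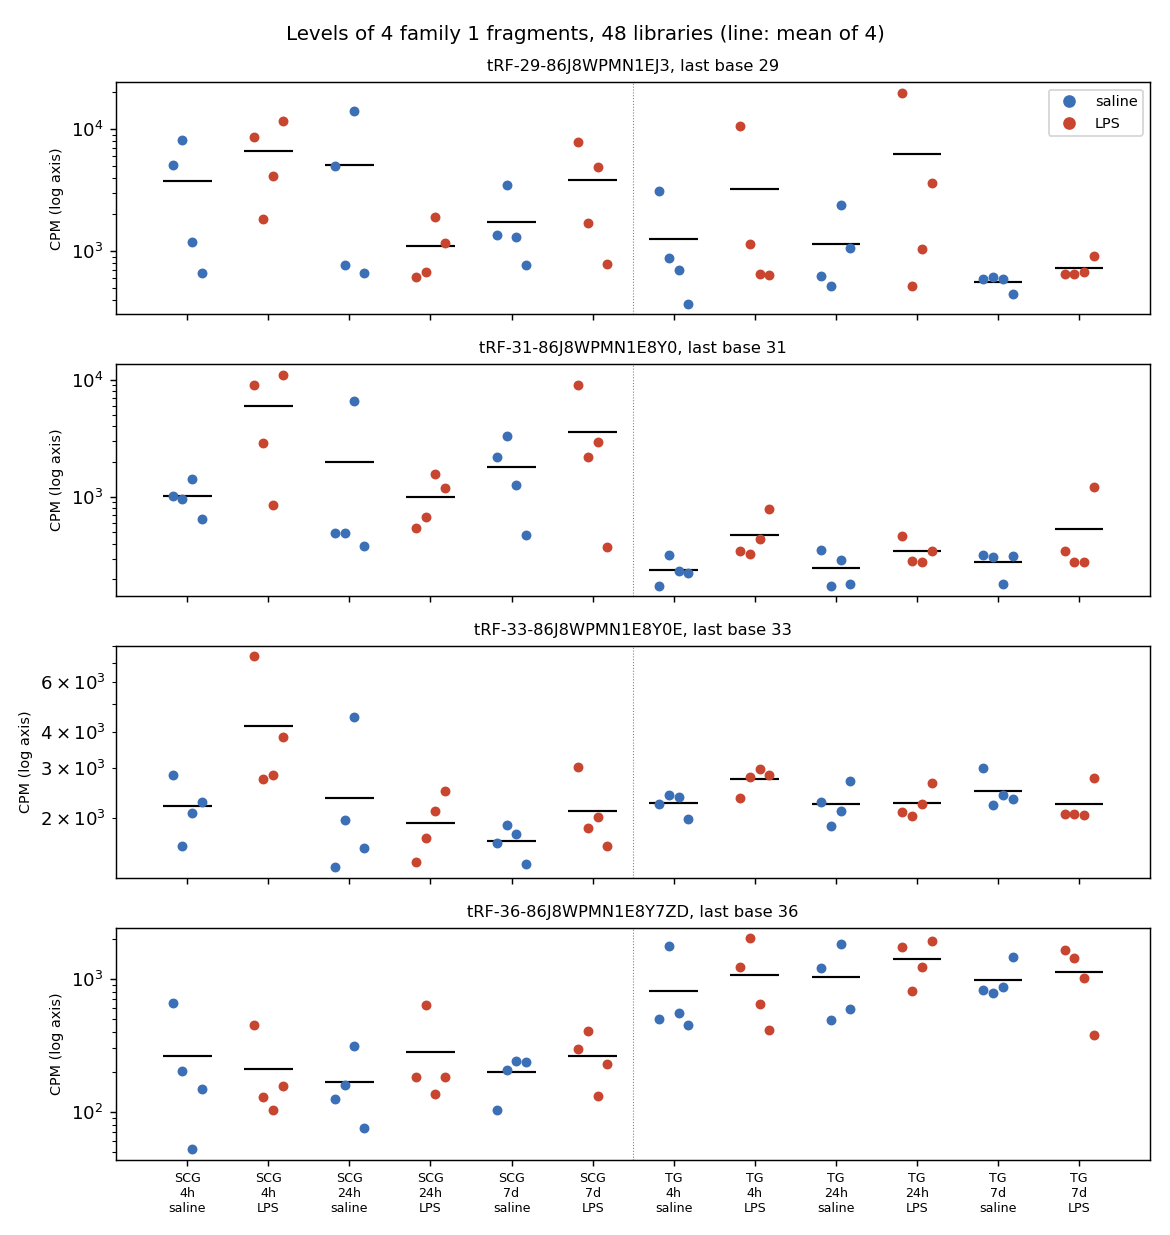
Level in CPM after TMM scaling (log axis) of 4 family 1 fragments that end at bases 29, 31, 33 and 36, in each of the 48 libraries; points are libraries and lines the mean of 4. The fragment ending at base 36 is highest in the TG groups, the one ending at base 31 in the SCG groups, and the one ending at base 29 has single high libraries in both ganglia.

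Over the whole set, 32 of the 65 members passed the filter on low counts in the comparison after saline, and 22 of them were called at an adjusted p under 0.05 (edgeR), 3 higher and 19 lower in the TG. Of all 571 fragments tested, 42.7% were called, 20.8% higher and 21.9% lower. After LPS 33 passed the filter and 21 were called, 5 higher and 16 lower. One of them, tRF-34-SR04SXQ3V2Y72E, passed the filter through the TG libraries alone, so its direction was fixed, and without it 20 of 32 were called, 4 higher and 16 lower. In that comparison 50.3% of 599 fragments were called, 26.7% higher and 23.5% lower. The median log2 fold change of the members tested was -1.21 after saline and -0.83 after LPS (-0.86 without that fragment), against -0.04 and -0.03 over all fragments tested. Over the other 5' fragments tested it was -0.32 and -0.29. Of these 27 were called higher and 58 lower of 180 after saline, and 49 and 72 of 205 after LPS. Over 5' fragments of the glutamate tRNA with the anticodon CTC it was -0.06 (12 tested) and 0.15 (14 tested). The saline and LPS comparisons share no library, and 19 members were called in both, all in the same direction: 86.4% of those called after saline and 95% of the 20 called after LPS. The same overlap over all fragments tested is not given here, so this is not shown to be particular to the members. Scaling to total tRNA fragment counts, with no correction for composition, moved the median of all fragments to 0.67 after saline and 0.53 after LPS, and the calls then split into 7 higher and 12 lower, and 9 higher and 13 lower.

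Position by position, families 1 and 2 had the same calls at every end tested in both families. Their fragments ending at bases 28, 30, 31, 32 and 34 were lower in the TG in both comparisons, with log2 fold changes between -2.70 and -0.87. The LPS call of tRF-30-86J8WPMN1E8Y (-2.11) was lost without the filter on low counts (adjusted p = 0.0679). Those ending at base 36 were higher, and those ending at bases 26, 33 and 35 were not called. tRF-34-86J8WPMN1E8Y2Q, which takes in the first anticodon base, lay at 463 to 3872 CPM (median 1645) in the SCG and 278 to 1444 CPM (median 427) in the TG after saline, and at 407 to 11117 CPM (median 2300) against 274 to 1274 CPM (median 480) after LPS. Of 12 TG libraries 7 lay below every SCG library after saline and 4 after LPS. Its log2 fold change was -1.50 (SE 0.29, adjusted p = 0.000175 by edgeR) and -2.36 (SE 0.37, adjusted p = 8.79e-06). Family 2 gave the same order at other levels. tRF-36-86V8WPMN1E8Y7ZD lay at 23.7 to 261 CPM (median 60.9) in the SCG and 184 to 986 CPM (median 435) in the TG after saline, and at 47.8 to 274 CPM (median 86.7) against 131 to 1326 CPM (median 687) after LPS. tRF-33-86V8WPMN1E8Y0E lay at 493 to 2364 CPM (median 830) in the SCG and 629 to 1234 CPM (median 952) in the TG after saline, and was not called (log2 fold changes of -0.14 and -0.44, edgeR adjusted p = 0.664 and 0.102). Its LPS value passed the threshold without SCG 24h LPS replicate 1 (adjusted p = 0.0478) or SCG 7d LPS replicate 4 (adjusted p = 0.0461). The family 2 fragment ending at base 34, tRF-34-86V8WPMN1E8Y2Q, gave -1.60 (SE 0.32) and -2.47 (SE 0.34), and tRF-36-86V8WPMN1E8Y7ZD gave 2.46 (SE 0.36) and 2.46 (SE 0.32).

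**Figure D3:**
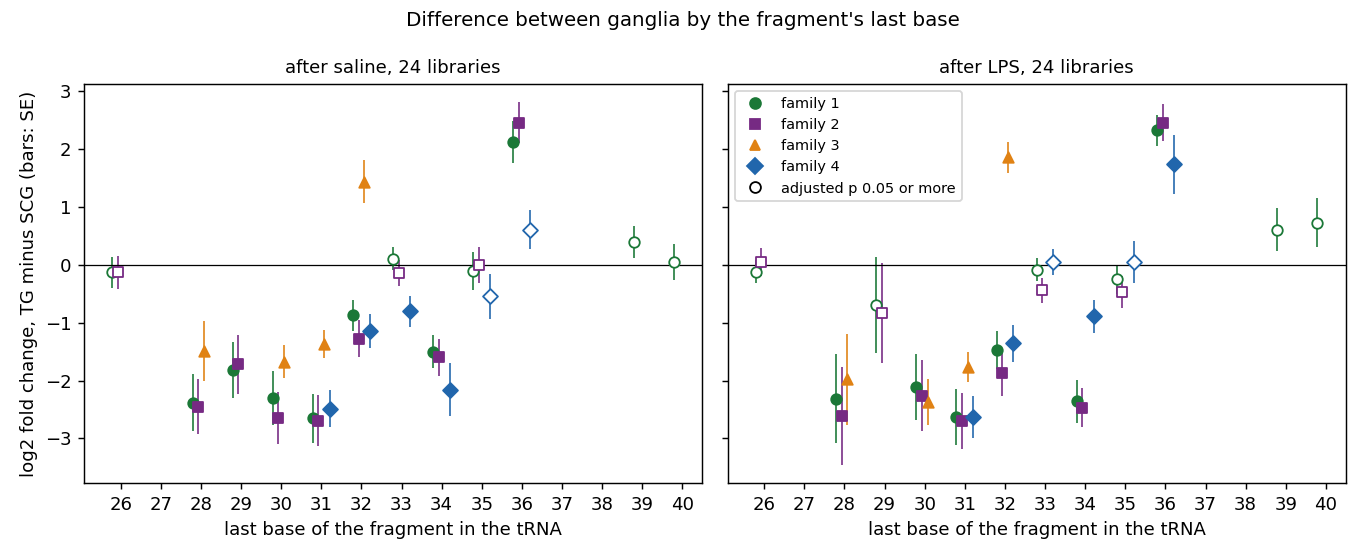
Log2 fold change, TG minus SCG, with its SE, of the members tested that start at base 1, by the last base of the fragment in the tRNA, after saline (left) and after LPS (right), 24 libraries each; symbols are families 1 to 4, and open symbols have an adjusted p of 0.05 or more. Ends at bases 28 to 32 and 34 lie below 0 except for the family 3 fragment ending at base 32, and ends at base 36 lie above 0. Base numbers of family 3 may not mark the same place in the tRNA as in the other families.

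The ends can also be read within a library, where no scaling enters. Of the family 1 counts, fragments ending at base 36 took a median of 1.50% (0.624% to 5.35%) in the SCG after saline and 13.4% (6.64% to 24.2%) in the TG, and 1.13% (0.356% to 8.17%) against 16.3% (4.53% to 24.9%) after LPS. Fragments ending at base 31 took 9.97% (4.96% to 28.1%) against 4.32% (2.37% to 5.52%) after saline, and 16.5% (6.97% to 25.9%) against 4.77% (1.69% to 14.7%) after LPS. Those ending at base 32 took 2.06% to 8.06% against 3.38% to 6.59% after saline. After LPS they took 4.34% to 7.285% against 0.622% to 6.33%. After saline the TG range lay inside the SCG range, so the lower scaled level at base 32 was not seen in that share. The end at base 33 was the most frequent in the TG, with medians of 39.0% after saline and 33.1% after LPS, against 20.8% and 19.1% in the SCG. In the SCG the counts were spread over more ends, with medians after saline of 17.4% at base 29 and 13.3% at base 34.

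The ratio of the base 36 end to the base 31 end puts both ends in 1 value per library. The 2 ends were taken from those that differed in opposite directions in these same libraries, so the ratio is no independent support. In family 1 it was 0.0367 to 0.645 in the SCG and 1.98 to 6.32 in the TG after saline, so that all 12 TG libraries lay above every SCG library. After LPS it was 0.0143 to 0.940 in the SCG and 0.309 to 6.25 in the TG, and 10 of 12 TG libraries lay above every SCG library. Family 2 gave 0.0159 to 0.386 against 1.28 to 4.76 after saline, with 12 of 12 TG libraries above, and 10 of 12 after LPS. Taken over the base 33 end in family 1, the base 36 end lay above every SCG library in 9 of 12 TG libraries after saline and 9 after LPS. Over the same end, base 31 lay below every SCG library in 12 and 10, and base 34 in 9 and 10. Base 30 did so in 8 and 9, and base 29 in 7 and 7. For base 29, 2 TG libraries after LPS lay above every SCG library.

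**Figure D4:**
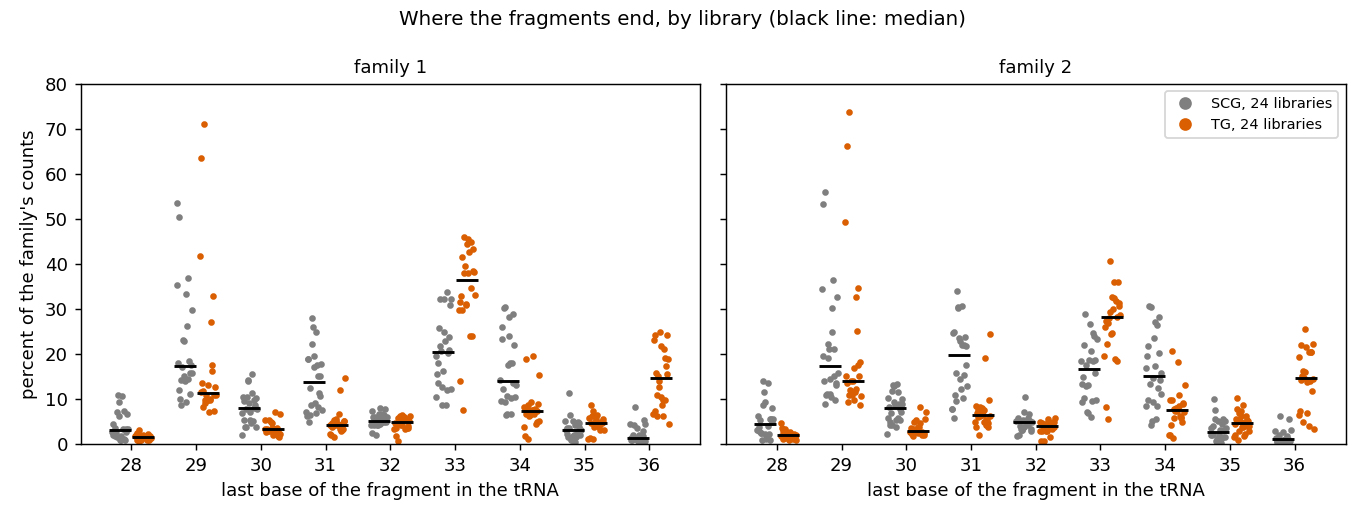
Percent of the counts of family 1 (left) and family 2 (right) that end at each base from 28 to 36, by library; grey points are the 24 SCG libraries, orange points the 24 TG libraries, and black lines medians. The lines take saline and LPS libraries together. Over the saline libraries alone, which no line shows, ends at base 36 in family 1 have medians of 1.50% in the SCG and 13.4% in the TG. In family 1, 2 TG libraries, at 63.4% and 71.1%, stand apart at base 29.

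The share of family 2 relative to family 1 was not the same at every end. Summed over libraries, family 2 had 46.8% of the counts of family 1 at base 33, 52.2% at base 36 and 56.0% at base 34, but 64.0% at base 29 and 84.4% at base 31. By library the percentage ran from 32.5 to 67.4 at base 33 and from 47.6 to 119 at base 31, and these ranges overlap.

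The fragments ending at base 29, the most abundant member of each of the 2 families, varied widely between libraries. tRF-29-86J8WPMN1EJ3 ranged from 661 to 13913 CPM (median 1332) in the SCG and from 372 to 3119 CPM (median 623) in the TG after saline, and from 614 to 11642 CPM (median 1877) in the SCG and from 521 to 19727 CPM (median 795) in the TG after LPS. The 2 highest TG libraries, TG 24h LPS replicate 1 and TG 4h LPS replicate 1 (10579 CPM), lay far above the other TG libraries after LPS. Its log2 fold change was -1.82 (SE 0.48, adjusted p = 0.00328 by edgeR) after saline and -0.70 (SE 0.83, adjusted p = 0.526) after LPS. tRF-29-86V8WPMN1EJ3 gave -1.72 (SE 0.51, adjusted p = 0.00814) and -0.83 (SE 0.86, adjusted p = 0.459), and without SCG 24h saline replicate 3 the first value was -1.06 (adjusted p = 0.074). After saline neither passed with total count scaling (log2 fold changes of -0.92 and -0.80) or without the filter on low counts (-1.75 and -1.64). Whether the base 29 end differed between ganglia by a different amount after LPS was not tested.

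In family 3 the neighbouring ends at bases 31 and 32 differed in opposite directions. tRF-31-PER8YP9LON4VD, its main fragment, ranged from 900 to 3166 CPM (median 1727) in the SCG and from 320 to 1385 CPM (median 732) in the TG after saline, and from 478 to 3844 CPM (median 2093) against 308 to 986 CPM (median 590) after LPS. Its log2 fold change was -1.37 (SE 0.24, adjusted p = 5.27e-05 by edgeR) and -1.76 (SE 0.26, adjusted p = 3.14e-06). The fragment 1 base longer, tRF-32-PER8YP9LON4V3, lay at 9.49 to 174 CPM (median 39.2) in the SCG and 54.8 to 269 CPM (median 131) in the TG after saline, and its log2 fold change was 1.44 (SE 0.37, adjusted p = 0.00246) and, after LPS, 1.86 (SE 0.27, adjusted p = 2.28e-06). The shorter tRF-30-PER8YP9LON4V lay at 167 to 589 CPM in the SCG and 41.3 to 177 CPM in the TG after saline, and its log2 fold changes were -1.67 (SE 0.29) and -2.37 (SE 0.39), both called. For the 32-base fragment the ranges overlapped after saline, and after LPS all 12 TG libraries (60.9 to 319 CPM) lay above every SCG library (16.0 to 59.6 CPM). Within the family, the 32-base fragment took 2.24% (median) of the counts in the SCG and 14.3% in the TG after saline, and 1.67% and 17.5% after LPS.

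In family 4 the fragment ending at base 31 was lower in the TG. tRF-31-87R8WP9I1EWJ0 had medians of 392 CPM in the SCG and 60.4 CPM in the TG after saline and 478 and 68.4 CPM after LPS, with log2 fold changes of -2.49 (SE 0.32, adjusted p = 7.47e-07 by edgeR) and -2.63 (SE 0.36, adjusted p = 1.24e-06). At base 32 the family 4 fragment gave -1.14 (SE 0.30) and -1.35 (SE 0.32), and at base 34 -2.16 (SE 0.46) and -0.89 (SE 0.28), all called. At base 36 it gave 0.61 (SE 0.34, adjusted p = 0.146) after saline and 1.74 (SE 0.51, adjusted p = 0.00607) after LPS. At base 33 tRF-33-87R8WP9I1EWJDW gave -0.80 (SE 0.27, adjusted p = 0.0196) after saline and 0.05 (SE 0.22, adjusted p = 0.883) after LPS. The first of these calls was lost without SCG 4h saline replicate 1 (adjusted p = 0.0503) or without TG 4h saline replicate 3 (adjusted p = 0.0501), and also without the filter on low counts (-0.65, adjusted p = 0.164). Scaled to total counts it was -0.12 (adjusted p = 0.705). In the same fits 85 of 180 of the other 5' fragments were called after saline and 121 of 205 after LPS.

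A rare member was almost confined to the TG in these libraries. tRF-34-SR04SXQ3V2Y72E is the family 1 fragment ending at base 33 with an extra G before base 1, printed as the capital, and tRF-34-SRH4SXQ3V2Y72E is its family 2 counterpart.
tRF-34-SR04SXQ3V2Y72E: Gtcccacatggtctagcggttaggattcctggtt
tRF-34-SRH4SXQ3V2Y72E: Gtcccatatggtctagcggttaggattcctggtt
The first had 128 counts in 23 of 24 TG libraries, at most 11 in a library, and 1 count in the 24 SCG libraries, although the SCG libraries held 7875702 tRNA fragment counts and the TG libraries 4687976. After saline there were 56 counts in the TG and 0 in the SCG. With the SCG count set to a limit of 3 over its 12 libraries, the level per tRNA fragment count was 24.8-fold higher in the TG. The lower end of the exact 95% counting interval of the ratio was 19.5. After LPS there were 72 and 1, a ratio of 141 (95% counting interval 24.5 to 5643). These intervals cover counting error only, and no molecular identifiers are named in the labels' protocols, so reads may not be independent molecules.

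The same fragment without the extra G, tRF-33-86J8WPMN1E8Y0E, was abundant in both ganglia. It had 13872 counts in the SCG and 12151 in the TG, so that the version with the G was 0.00721% of both versions in the SCG (exact binomial interval 0.000183% to 0.0402%) and 1.04% in the TG (0.870% to 1.24%). The family 2 counterpart had 1 count in the SCG and 16 in the TG, in 11 TG libraries, or 0.0139% (0.000353% to 0.0776%) and 0.319% (0.183% to 0.518%). Over all tRNAs, the 25 5' fragments with an extra G and at least 10 counts held 1019399 of the 7875702 SCG counts and 408239 of the 4687976 TG counts. The 2 members held only 2 and 144 of these. The sum therefore follows far more abundant fragments and cannot show how other rare fragments with an extra G differed between the ganglia. The edgeR fit tested tRF-34-SR04SXQ3V2Y72E only after LPS, where its direction was fixed by the filter, so that call supports nothing here.

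**Figure D5:**
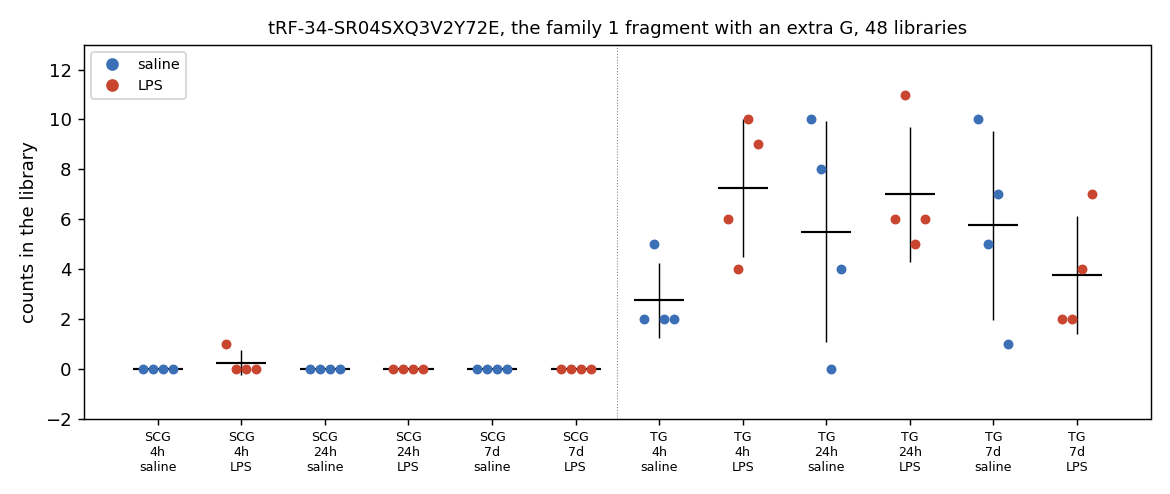
Counts of tRF-34-SR04SXQ3V2Y72E, the family 1 fragment with an extra G before base 1, in each of the 48 libraries; points are libraries, horizontal lines group means and vertical lines 1 SD (n = 4). Of the 24 SCG libraries 1 holds a single count, and 23 of the 24 TG libraries hold up to 11.

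Among the markers of other cell types, only the glial list separated the ganglia after saline. Besides the sensory neuron miRNAs, the 2 glial miRNAs (miR-219a-2-3p and miR-338-3p), both detected, summed to 441 to 1007 CPM in the SCG and 1853 to 3902 CPM in the TG after saline. The 5 erythroid miRNAs summed to 728 to 2637 CPM and 1803 to 8511 CPM, and the 4 muscle miRNAs to 199 to 94360 CPM and 4128 to 15139 CPM, with miR-133b-3p at 0 in 6 libraries. Both of these lists overlapped between the ganglia. So did the neuron list (34384 to 50764 CPM and 28850 to 60113 CPM) and the leukocyte list (383 to 549 CPM and 331 to 796 CPM). The epithelium and pituitary list overlapped too (278 to 12840 CPM and 162 to 4730 CPM). Their part in the difference between the ganglia was not tested. Without SCG 4h saline replicate 1, 22 members were called after saline, and without SCG 7d LPS replicate 2, 21 after LPS.

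No member was called between LPS and saline at any time in either ganglion. In the SCG 32 members were tested among 544 fragments, and in the TG 35 among 559, and with edgeR at an adjusted p under 0.05 the count was 0 at 4 h, 24 h and 7 d, where 0% of all fragments tested were called. DESeq2 called 0 members too. At an unadjusted p under 0.05 there were 9 members at 4 h, 2 at 24 h and 0 at 7 d in the SCG, and 3, 3 and 2 in the TG. Of all fragments tested, 39, 26 and 27 of 544 passed this cut in the SCG, and 21, 45 and 38 of 559 in the TG. The median log2 fold change of the members tested was 0.76, -0.19 and 0.67 in the SCG at 4 h, 24 h and 7 d, against -0.05, 0.08 and 0.10 over all fragments, and 0.36, 0.19 and 0.34 in the TG, against -0.03, -0.02 and 0.02. Over the other 5' fragments tested the medians were 0.33, 0.11 and 0.19 in the SCG and 0.17, 0.25 and 0.22 in the TG. The members' medians rested on the scaling and on single libraries: with total counts the SCG value at 4 h was 0.09 and the TG value at 7 d -0.23, and the SCG value at 7 d was 0.09 without SCG 7d LPS replicate 1. The SCG value at 24 h was 0.21 without SCG 24h saline replicate 3, and the TG value at 7 d was 0.08 without TG 7d LPS replicate 4.

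At 4 h in the SCG the LPS libraries spread widely. tRF-31-86J8WPMN1E8Y0 lay at 1017, 967, 1423 and 650 CPM after saline and at 9020, 2889, 864 and 11002 CPM after LPS. Of the LPS libraries 3 lay above every saline library and 1 among them, and the log2 fold change was 2.37 (SE 0.92, unadjusted p = 0.0176, adjusted p = 0.578 by edgeR). tRF-31-86V8WPMN1E8Y0 lay at 676, 707, 1120 and 572 CPM after saline and at 7244, 2643, 909 and 10615 CPM after LPS, and its log2 fold change was 2.62 (SE 0.94, adjusted p = 0.578). The libraries with the highest values, SCG 4h LPS replicates 1 and 4, were also those in which tRNA fragments made up 24.1% and 12.9% of the small RNA counts, against a median of 7.53% in the SCG after saline; the part of this in the result was not tested.

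Other members with a low unadjusted p are given next. At 24 h in the SCG tRF-29-86J8WPMN1EJ3 lay at 4973, 768, 13913 and 667 CPM after saline and at 614, 679, 1922 and 1163 CPM after LPS, and its log2 fold change was -2.10 (SE 0.91, adjusted p = 0.941 by edgeR). The groups overlapped, with saline replicates 1 and 3 high, and without saline replicate 3 the value was -0.80. For comparison only, and not for a low p, the same fragment at 24 h in the TG is given too. It lay at 633, 525, 2372 and 1058 CPM after saline and at 19727, 521, 1042 and 3631 CPM after LPS. At 24 h in the TG tRF-30-86J8WPMN1E8Y had a log2 fold change of 1.25, and 0.18 to 1.63 with 1 library left out. At 7 d in the TG tRF-31-86V8WPMN1E8Y0 had 1.07, and 0.06 to 1.34 with 1 library left out. In the TG tRF-31-86J8WPMN1E8Y0 lay at 176.6, 324.8, 237.3 and 226.8 CPM 4 h after saline and at 349.1, 324.9, 439.1 and 799.2 CPM 4 h after LPS, and its log2 fold change was 0.96 (SE 0.42, adjusted p = 0.934). The lowest LPS value lay just above the highest saline value, so the groups did not overlap, and without LPS replicate 4 the value was 0.63.

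The fragment through the anticodon was not called either. tRF-36-86J8WPMN1E8Y7ZD lay at 496, 1759, 552 and 450 CPM in the TG 4 h after saline and at 1222, 2029, 644 and 410 CPM 4 h after LPS, which overlapped. In the SCG at 4 h it lay at 656, 202, 52.2 and 147 CPM after saline and at 453, 129, 103 and 157 CPM after LPS, which overlapped as well.

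Time and sex gave no call with edgeR. With edgeR no member was called for a difference of the LPS effect across times, for the saline groups across times, for male minus female, or for the LPS effect by sex, in either ganglion. Of all fragments 0% were called in these comparisons except the saline groups across times in the TG, where 0.179% were, 1 of 559, which was no member. At an unadjusted p under 0.05 these gave 4, 1, 1 and 2 members in the SCG and 1, 1, 4 and 6 in the TG. Of all fragments tested, 23, 20, 50 and 31 of 544 passed this cut in the SCG, and 20, 24, 53 and 45 of 559 in the TG. DESeq2 called 1 member in total, for male minus female in the TG, where it called 2 of all fragments. The LPS effect was not called different between the ganglia for any of 37 members tested at any time (edgeR and DESeq2 both 0, with 0% of 729 fragments called), with 3, 4 and 0 members at an unadjusted p under 0.05 at 4 h, 24 h and 7 d. Of the 729 fragments 30, 35 and 29 passed that cut.

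The remaining members were rare. Of the 65, 28 had a count in all 48 libraries and 15 in fewer than 24. Family 5, with 2 members led by tRF-23-87R718YKDE, held 0.095% of the members' counts. Family 6, with 3 members that start with an extra T, held 0.076%, with 147 counts in the SCG and 49 in the TG. tRF-23-87R718YKDE lay at 0 to 22.1 CPM (median 10.1) in the SCG and 14.5 to 56.0 CPM (median 27.3) in the TG after saline, where 7 of 12 TG libraries lay above every SCG library. After LPS it lay at 9.45 to 53.5 CPM (median 15.8) and 0 to 70.9 CPM (median 23.8), which overlapped. It did not pass the filter in the comparison between ganglia, so this difference was not tested.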

How the data were processed

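Read counts per tRNA fragment and per miRNA were used as the authors deposited them; small RNA libraries were made with a ligation kit, per the labels' protocols. FastQC 0.11.9 and the build GRCm39 are named in the submitters' processing notes; the aligner and fragment caller: not given in the sources used here, and the fragment annotation follows human tRNA loci. Counts were filtered with filterByExpr (minimum count 10), scaled by TMM and tested with edgeR 4.0.16 (quasi-likelihood, robust) in R 4.3.3, with Benjamini-Hochberg adjustment over all fragments tested and a threshold of 0.05. Fits within a ganglion had the groups and sex as terms (24 libraries), fits between ganglia ganglion, time and sex (24 libraries of a treatment), and 19 comparisons were fitted. DESeq2 1.42.0, other scalings, no filter, no sex term and leaving out each library were alternatives, and the scripts were tested on simulated data. Replicates are libraries of different mice; ganglia of a mouse were not paired, since the labels do not tie them.

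The members, lists and tests were chosen with earlier results of these data known. Named fragments are the 12 most abundant members, up to 6 with the smallest adjusted p under 0.05 in a comparison, and the most abundant of each family; other fragments are named to complete a pair or an end. Libraries held 61218 to 1511191 tRNA fragment counts. One comparison fragment is not reported here.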

Additional observations from a re-analysis of the deposited data

Results flagged for a closer look

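In each group of 4 libraries, the summed share of the members, the 4 main families and the 12 most abundant members were searched for a library far from the other 3 (Dixon's ratio of the gap to the range, above its 95% critical value). Of 204 such sets 24 were marked, in 12 libraries. Chance marks about 1 in 20 where values are normally distributed. The values here were not log-transformed, and the family sums hold members that were also searched, so the number due to chance is not known. All values are CPM after TMM scaling.

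SCG 24h saline replicate 3 had 5 marked values, all high. Family 1 summed to 37618 there against 4618 to 9882 in the other 3 libraries, and family 2 to 24607 against 2268 to 5825. tRF-31-86J8WPMN1E8Y0 lay at 6625, tRF-31-86V8WPMN1E8Y0 at 5422 and tRF-30-86J8WPMN1E8Y at 4235.

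The end at base 29 was marked in 2 TG libraries after LPS. In TG 4h LPS replicate 1 tRF-29-86J8WPMN1EJ3 lay at 10579 and tRF-29-86V8WPMN1EJ3 at 6778. In TG 24h LPS replicate 1 they lay at 19727 and 11784, with tRF-30-86J8WPMN1E8Y at 1501 and tRF-33-87R8WP9I1EWJDW at 1178.

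In the TG at 7 d, tRF-29-86J8WPMN1EJ3 was marked low at 451.6 in saline replicate 4 and marked at 914.1 in LPS replicate 4. LPS replicate 4 also held tRF-33-86J8WPMN1E8Y0E at 2753 and tRF-31-86J8WPMN1E8Y0 at 1219, while the latter lay at 183 in saline replicate 3.

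tRF-36-86J8WPMN1E8Y7ZD was marked at 453.2 in SCG 4h LPS replicate 1, 633 in SCG 24h LPS replicate 2, 1759 in TG 4h saline replicate 2 and 1471 in TG 7d saline replicate 4. Family 4 summed to 4245 in SCG 4h LPS replicate 1, and family 3 to 524.9 in TG 24h saline replicate 2. tRF-34-86J8WPMN1E8Y2Q lay at 1458 in SCG 4h saline replicate 2, and tRF-34-86V8WPMN1E8Y2Q at 936.9 in TG 24h saline replicate 1. The cause of these values was not tested.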

How the results depend on the processing

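The counts of members called between ganglia ranged from 21 to 24 after saline and from 19 to 22 after LPS when 1 library was left out. Without the filter on low counts, members were called for LPS at 24 h in the TG (2), for male minus female in the TG (1) and for the 24 h LPS effect between ganglia (3), where the filtered fit called 0. How many of all fragments the unfiltered fits called is not given here, so these calls are not shown to be particular to the members. DESeq2 called 1 for male minus female in the TG. Among log2 fold changes between ganglia, those of fragments not called changed sign. Scaled to total counts, the LPS value was 0.16 for tRF-29-86J8WPMN1EJ3, 0.06 for tRF-29-86V8WPMN1EJ3, 0.56 for tRF-33-86J8WPMN1E8Y0E and 0.20 for tRF-33-86V8WPMN1E8Y0E, and the saline value of the last was 0.69. With library sizes of the miRNA table it was -0.15 for tRF-33-86J8WPMN1E8Y0E after saline and -0.26 for tRF-33-87R8WP9I1EWJDW after LPS. With 1 library left out, tRF-33-86V8WPMN1E8Y0E after saline ranged from -0.22 to 0.09 (without SCG 24h saline replicate 3), tRF-33-86J8WPMN1E8Y0E after LPS from -0.15 to 0.06 (without SCG 4h LPS replicate 1), and tRF-33-87R8WP9I1EWJDW after LPS from -0.08 to 0.14. The cause was not tested. With total counts some called values kept their call but shrank by over 1.5 times, among them tRF-34-86J8WPMN1E8Y2Q after saline (-0.77) and tRF-31-PER8YP9LON4VD after saline (-0.73). No paired analysis was possible because replicate numbers were given in accession order and no label links libraries of the same mouse. Depth limits the rarest members, which the filter on low counts left untested.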
